A study of Mus musculus with 24 samples.

Results

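The genes described here encode the Rab, Arf and Arl small GTPases, the molecular switches of vesicle traffic. The family was chosen with earlier results of these data known. No measured value entered the rule for its genes. They were taken by symbol alone, as every gene named Rab, Arf or Arl with a number in the deposited peak table. This gave 82 genes, of which 57 are Rab genes, 6 are Arf genes and 19 are Arl genes. The table assigned 533 of its 144154 peaks of histone H3 lysine 27 acetylation (H3K27ac) to them. Peaks reaching to within 1000 bp of the start of their gene count here as promoter peaks. By that definition 117 member peaks were promoter peaks and 416 lay elsewhere. At least 1 promoter peak was found for 72 of the 82 genes, and 40 genes had 2 or more. Where a gene had several, the peak with most counts on average represents it below. The 10 genes without a promoter peak were Arl9, Arl11, Arl14, Rab3b, Rab7b, Rab19, Rab25, Rab29, Rab30 and Rab44.

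H3K27ac marks active promoters and enhancers, and it was measured by chromatin immunoprecipitation and sequencing in NeuN-sorted neuronal nuclei of the dentate gyrus, with about 750000 nuclei stained per sample. All animals were male C57BL/6J mice of 12 weeks. They received the class I histone deacetylase inhibitor CI-994 at 30 mg/kg (HDACi) or its solvent without drug (Veh), by intraperitoneal injection 1 h before the test, and were killed 1 h after it. In contextual fear conditioning (CFC), 3 min in the chamber preceded 2 foot shocks of 1 s at 0.2 mA. The Context animals stayed in the chamber equally long without shock. The 4 groups were HDACi-CFC, Veh-CFC, HDACi-Context and Veh-Context, with 3 H3K27ac libraries each. The drug was randomised over mice but conditioning was assigned by cage, so an effect of shock and one of housing cannot be told apart. The labels do not say how many mice contributed to a library, so the p-values below measure the spread between libraries, which may be partly technical.

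Rab and Arf proteins cycle between a GDP-bound state held in the cytosol and a GTP-bound state on a membrane. Exchange factors switch them on, GTPase-activating proteins switch them off, and in the active state each recruits effectors such as tethers, motors and coat proteins. Individual members mark individual compartments, from the endoplasmic reticulum and Golgi to early, recycling and late endosomes and secretory vesicles. In neurons they carry synaptic vesicle precursors along the axon, prepare vesicles for release and move glutamate receptors through endosomes into dendritic spines.

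Promoter sequences are shown for 5 members called in at least 2 of the 4 group comparisons described below. Of the members so called, Arl16, Rab6b, Arl2 and Rab28 had the largest mean absolute log2 fold changes. Arf6 (0.577) came next and had no entry among the promoter sequences. Rab4a (0.561) is not shown, and Rab31 (0.551), next below it, is. Each sequence is the 250 bases before the transcription start in the RefSeq table for GRCm38.p6, written 5′ to 3′ on the strand of the gene. Capitals mark matches to the promoter motifs listed further on, except the short TGACG. For Arl2 all 250 bases and for Rab28 233 bases lay inside the representative H3K27ac peak. For Arl16, Rab6b and Rab31 that peak began downstream of the start, 400, 615 and 470 bp beyond the window. The windows were chr11:120467601-120467850 (minus strand) for Arl16, chr9:103111824-103112073 (plus) for Rab6b, chr19:6141138-6141387 (minus) for Arl2, chr5:41708180-41708429 (minus) for Rab28 and chr17:65772753-65773002 (minus) for Rab31.
Arl16: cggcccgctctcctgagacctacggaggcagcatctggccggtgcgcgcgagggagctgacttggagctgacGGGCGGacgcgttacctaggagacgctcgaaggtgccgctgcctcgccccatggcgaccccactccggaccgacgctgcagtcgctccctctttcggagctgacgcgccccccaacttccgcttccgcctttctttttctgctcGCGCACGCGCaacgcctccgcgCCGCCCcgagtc
Rab6b: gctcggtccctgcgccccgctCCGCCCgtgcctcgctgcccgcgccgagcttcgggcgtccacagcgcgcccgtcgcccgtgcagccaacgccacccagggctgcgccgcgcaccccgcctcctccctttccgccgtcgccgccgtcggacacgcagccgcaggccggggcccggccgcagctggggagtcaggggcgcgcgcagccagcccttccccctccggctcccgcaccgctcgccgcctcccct
Arl2: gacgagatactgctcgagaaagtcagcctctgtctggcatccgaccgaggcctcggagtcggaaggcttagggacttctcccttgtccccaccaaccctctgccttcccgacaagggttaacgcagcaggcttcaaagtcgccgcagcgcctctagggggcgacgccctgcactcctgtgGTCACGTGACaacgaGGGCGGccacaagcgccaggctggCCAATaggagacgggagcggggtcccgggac
Rab28: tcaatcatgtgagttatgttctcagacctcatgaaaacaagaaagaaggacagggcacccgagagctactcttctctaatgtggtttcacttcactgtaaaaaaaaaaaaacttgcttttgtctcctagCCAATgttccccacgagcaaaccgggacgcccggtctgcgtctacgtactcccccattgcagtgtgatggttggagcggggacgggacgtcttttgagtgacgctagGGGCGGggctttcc
Rab31: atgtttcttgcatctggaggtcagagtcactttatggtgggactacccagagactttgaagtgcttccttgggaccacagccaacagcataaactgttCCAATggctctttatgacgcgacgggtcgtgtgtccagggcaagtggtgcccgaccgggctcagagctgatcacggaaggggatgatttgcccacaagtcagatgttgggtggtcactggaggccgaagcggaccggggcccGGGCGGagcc

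The CLEAR element of lysosomal genes, a palindrome, stands in the Arl2 window and inside its peak. It was also found in the windows of Rab5a, the early endosome Rab, of Rab21 and of Rab24, which is linked to autophagy. The search covered both strands from 250 bases before to 50 after the start. The element was in 5.13% of the 78 member windows (4 windows, several genes having more than 1 start), against 0.326% of all 32851 windows in the table. The GC box GGGCGG was in 76.9% of member windows and 35.7% of all windows. The cAMP response element TGACGTCA was in 3.85% of member windows (Arl4d, Arl5b and Rab5a) and 1.79% of all, and its shorter core TGACG, which includes those matches, in 42.3% and 20.8%. Shares for the other motifs, members first, were 47.4% and 37.4% for CCAAT (NF-Y), 12.8% and 4.6% for the NRF1 motif, 11.5% and 7.15% for the E-box CACGTG, which lies within the CLEAR element, and 10.3% and 8.86% for CCGGAAG (ETS). They were 7.69% and 5.55% for GCGNGGGCG (EGR), 6.41% and 2.24% for ATGGCGGC (YY1), 5.13% and 7.81% for TGANTCA (AP-1), and 5.13% and 13.6% for TATAAA. A match states only that these letters occur in the window. Of the 82 member genes, 68 had a promoter sequence. The windows of all genes were not matched to those of the members in base composition or in having an H3K27ac peak.

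Member promoters carried H3K27ac at the level of other promoters. Averaged over the 12 libraries and divided by peak width, the level had a median of 3.55 CPM per kb, where CPM are the usual counts scaled to a common library size, over the 72 genes, against 3.56 over all 14154 genes tested with a promoter peak. It ran from 1.46 CPM per kb at Rab38, a Rab of lysosome-related organelles, to 7.52 at Rab27b, which acts in the docking of secretory vesicles. Next below Rab27b came Rab6a of the Golgi at 6.85, Rab40c at 6.66, Rab40b at 6.65 and Rab28 of the cilium at 6.06 CPM per kb. Peaks were 454 to 15169 bp wide (median 1962 bp). Only 14 of the 72 spanned the start, 42 began downstream of it and 16 ended upstream. Of all 14154 genes, 4922 had a representative peak spanning the start, a larger share. The deposited chromatin state was strong promoter for 61.1% of the members (57.5% of all genes), primed enhancer for 19.4% (15.4%) and active enhancer for 15.3% (16.6%).

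Total counts per library were 6639158 to 16734757. The share of a library's counts that fell in promoter peaks moved with the groups: 25.2% to 25.4% in HDACi-CFC, 24.9% to 26.7% in Veh-CFC, 18.3% to 19.6% in HDACi-Context and 21.4% to 22.5% in Veh-Context. The summed signal of the 72 member promoters moved with it and was 943.2 ± 5.54, 887.5 ± 29.9, 665.3 ± 21.0 and 735.2 ± 14.2 CPM in the same order of groups (SD, n = 3 each). Member peaks outside promoters summed to 1928 to 2014 CPM in every library, with overlapping groups. The CPM were scaled on all peaks, most of which lie outside promoters, so the bulk of such peaks is held close to level by the scaling itself. The part of this library-wide share in the results below cannot be told apart from a change at many promoters at once, so each count is also given after scaling the libraries on promoter peaks only, which sets the bulk of promoters level.

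**Figure D1:**
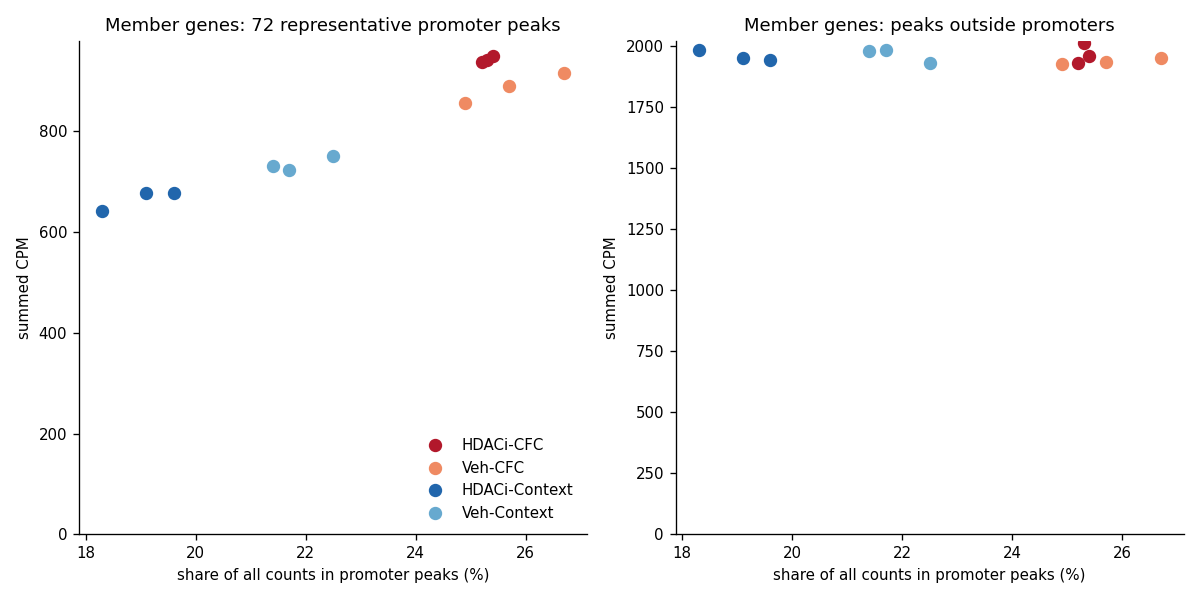
Summed H3K27ac of the member genes (CPM, y axes from 0) against the share of all counts in promoter peaks (%, x axes); each point is 1 of the 12 libraries, coloured by group. The 72 promoter peaks (left) sum to 938.3 to 949.2 CPM in HDACi-CFC and 641.1 to 678.2 CPM in HDACi-Context, while peaks outside promoters (right) stay between 1928 and 2014 CPM. Scaling on all peaks, most of them outside promoters, itself holds the bulk of the latter close to level.

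Marker genes were checked at their promoter peaks. All 7 granule neuron markers had a promoter peak and summed to 339.1 to 449.7 CPM in HDACi-CFC, 404.4 to 470.0 in Veh-CFC, 259.4 to 323.6 in HDACi-Context and 327.1 to 357.7 in Veh-Context. The NeuN gene Rbfox3 had one at 271.8 to 280.4, 219.3 to 253.3, 110.0 to 156.7 and 148.4 to 207.6 CPM in that order. Of 6 CA pyramidal neuron markers 5 had one (34.9 to 39.5, 27.6 to 37.4, 18.3 to 25.0 and 21.6 to 27.8 CPM), and of 6 interneuron markers only Gad1 had one, and none of the 3 endothelial markers did. The 6 oligodendrocyte markers all had a peak and summed to 175.6 to 197.8 CPM in HDACi-CFC, 169.4 to 214.0 in Veh-CFC, 92.6 to 106.4 in HDACi-Context and 130.0 to 143.7 in Veh-Context, so they moved with the groups in the direction of the member promoters. Both oligodendrocyte precursor markers summed to 23.0 to 24.3, 18.1 to 29.2, 8.46 to 13.4 and 14.4 to 16.3 CPM. The 4 astrocyte markers with a peak (of 5) summed to 49.1 to 53.3, 49.0 to 50.8, 38.2 to 43.2 and 39.0 to 45.8 CPM in the same order. The 4 microglia markers with a peak (of 6) summed to 24.1 to 26.8, 29.3 to 41.1, 22.7 to 24.6 and 26.0 to 30.4 CPM in that order. The part of these cells in the results was not tested, and in sorted bulk nuclei fewer cells of a type and less mark per cell cannot be told apart.

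Foot shock under the drug gave the most calls among the trafficking GTPases. In HDACi-CFC against HDACi-Context, H3K27ac was higher at 37 of the 72 member promoters and lower at none (adjusted p under 0.05 by the quasi-likelihood test of edgeR). Over all genes 48.9% were called higher and 2.07% lower, so the members' 51.4% was near the background. The median log2 fold change was 0.51 over the members and 0.44 over all genes. When the libraries were scaled on promoter peaks only, the split turned to 14 higher and 17 lower, against 21.1% and 22.5% of all genes under that scaling. The 14 higher were all among the 37, with Arl16, Arl5c, Rab6b, Rab4a and Rab31 leading. By libraries, 42 members were higher and 2 lower without overlap between the groups, against 57.1% and 3.96% of all genes. No fall passed the threshold, 2 had an unadjusted p under 0.05, and DESeq2 called 35 higher and 0 lower. Of all 14154 genes DESeq2 called 6344 higher and 123 lower.

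Shock without the drug gave a smaller set of calls. In Veh-CFC against Veh-Context, 15 members were higher and 0 lower, where 16.4% of all genes were called higher and 0.487% lower. The members' median was 0.29 and that of all genes 0.26. Of the 15, 14 were also called higher with shock under the drug, as were 94.0% of all genes called higher without it; the exception was Rab10, which takes part in exocytosis. The 2 comparisons share no library. Scaling on promoter peaks only left 3 members higher (Rab35, Rab6b and Rab5c) and made 5 lower, among them the recycling endosome genes Rab11a and Rab11b, against 6.95% and 5.31% of all genes under that scaling. With the common scaling 4 members were lower at an unadjusted p under 0.05, and DESeq2 called 12 higher and 0 lower. Of all 14154 genes DESeq2 called 1846 higher and 38 lower. The count rested on single libraries: it was 3 without Veh-CFC replicate 1, 5 without Veh-CFC replicate 2 and 3 without Veh-Context replicate 1. Of all genes 627, 1543 and 642 were called higher in those fits, against 2322 with all 12 libraries. Without overlap between groups, 29 members were higher and 3 lower, against 34.0% and 3.79% of all genes.

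Without shock, calls with the drug were all of lower H3K27ac under the common scaling of the libraries. In HDACi-Context against Veh-Context, 0 members were higher and 12 lower, where 1.06% of all genes were called higher and 24.2% lower. The median was -0.19 over the members and -0.31 over all genes. The direction depended on the scaling: on promoter peaks only, 12 members were higher and 5 lower, against 9.89% and 10.6% of all genes, and the median of all genes was -0.01 in place of -0.31. The 5 that stayed lower were Arl2, Rab28, Arl16, Rab11a and Rab6a. Under the common scaling 5 members were higher at an unadjusted p under 0.05, and DESeq2 called 0 higher and 11 lower. Of all 14154 genes DESeq2 called 127 higher and 2996 lower. The count fell to 6 without HDACi-Context replicate 2 and to 6 without Veh-Context replicate 3. Lower calls over all genes fell from 3430 to 2189 and 1723 in those fits. Without overlap between groups, 5 members were higher and 19 lower, against 4.56% and 37.2% of all genes.

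The drug with shock gave few calls among the members. In HDACi-CFC against Veh-CFC, 1 member was higher, Arf1, and 1 lower, Rab33b, where 0.735% of all genes were called higher and 2.7% lower. The medians were -0.00 over the members and -0.08 over all genes. Both calls were fragile, as given with each gene below. On promoter peaks only Arf1 alone was called, against 1.2% higher and 1.48% lower of all genes. Without overlap between groups, 9 members were higher and 10 lower, against 9.35% and 19.3% of all genes. The upstream promoter peak of Arf4, which does not represent it here, was also called lower (-0.74, adjusted p = 0.021).

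**Figure D2:**
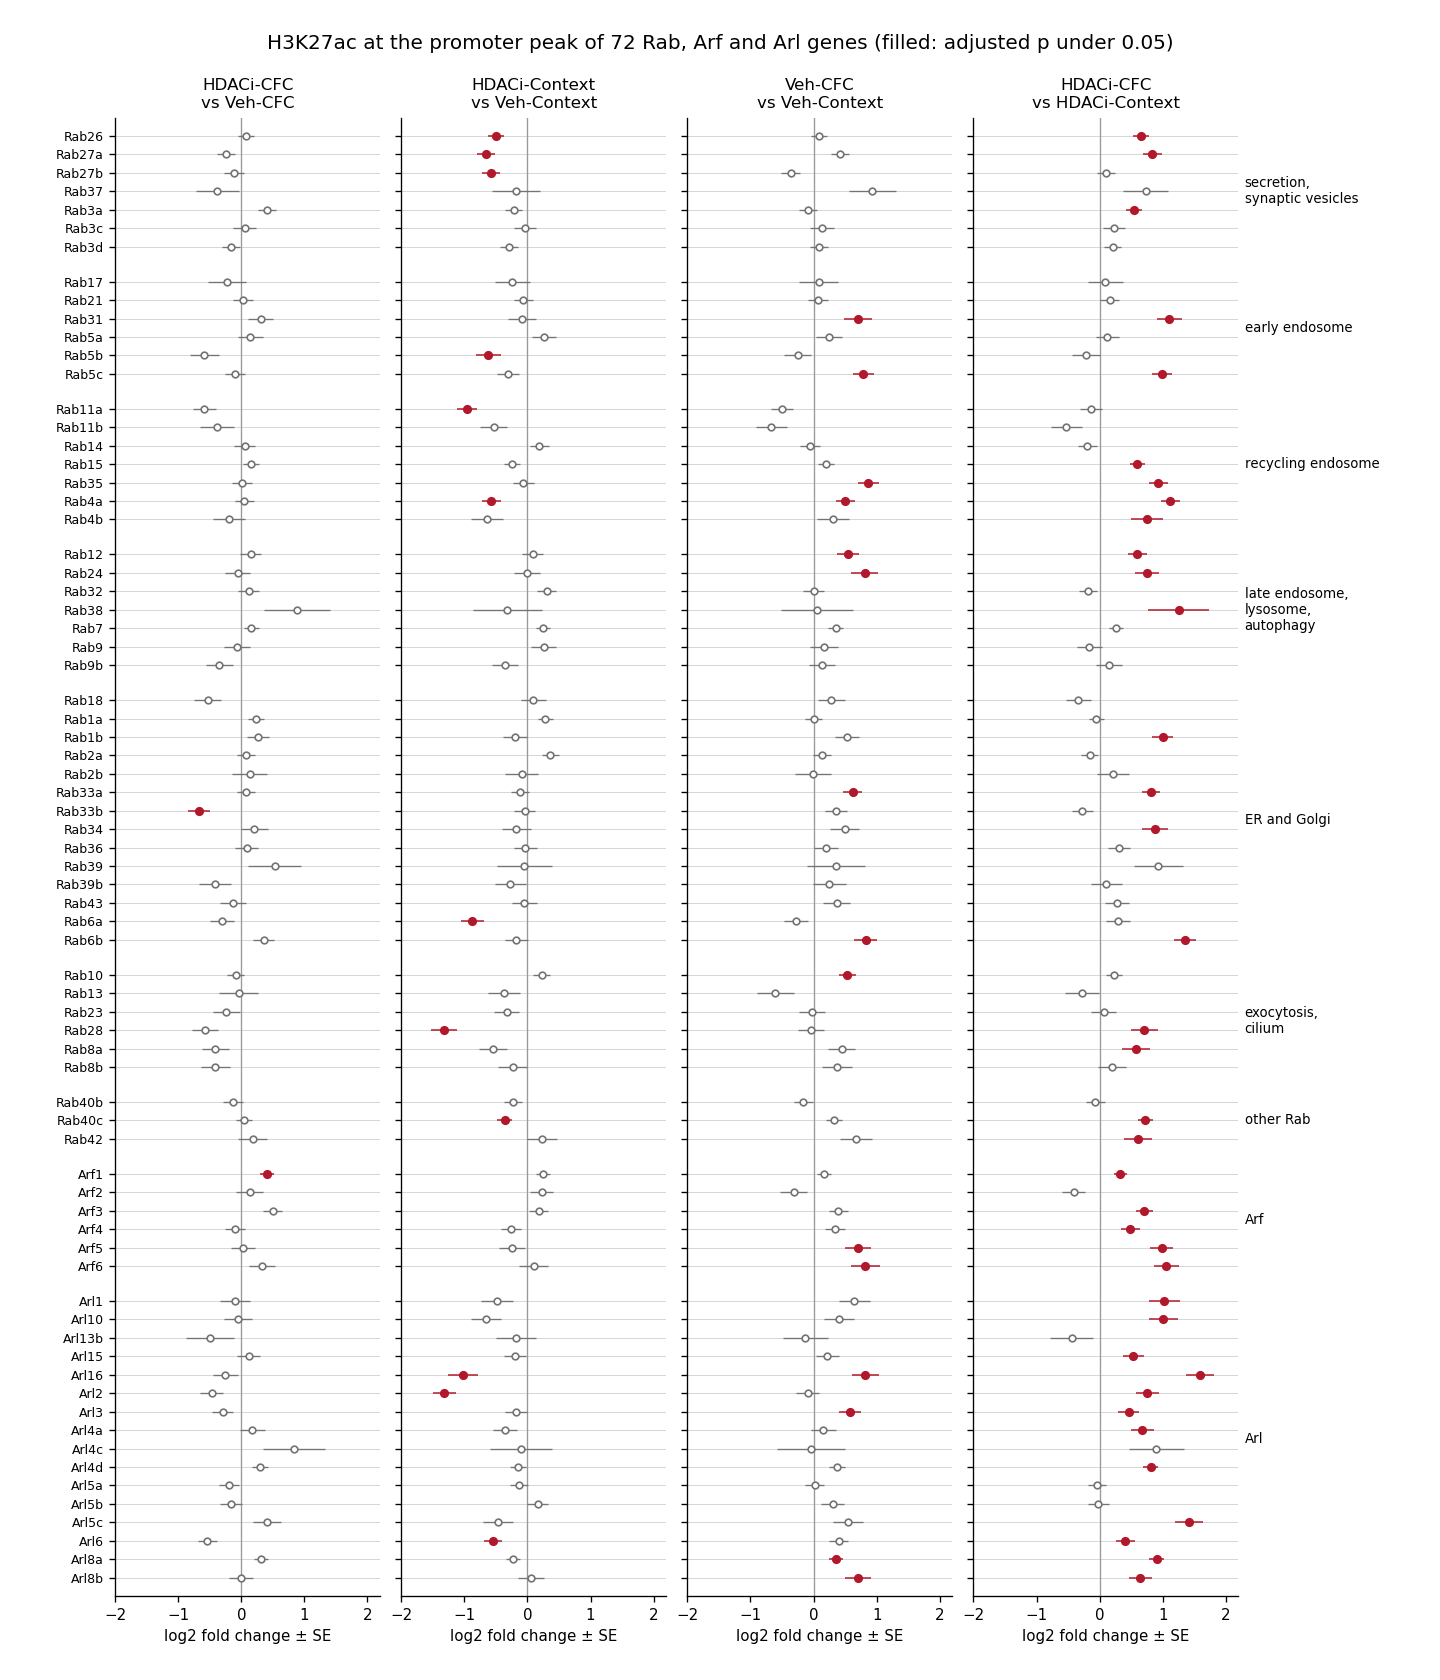
Log2 fold change ± SE (x axes) of the promoter peak of each of the 72 member genes (rows, grouped by role) in the 4 comparisons; filled red points have an adjusted p under 0.05 by edgeR with the libraries scaled on all peaks. Calls are 37 higher in HDACi-CFC against HDACi-Context, 15 higher in Veh-CFC against Veh-Context and 12 lower in HDACi-Context against Veh-Context; on promoter peaks only these become 14 higher and 17 lower, 3 higher and 5 lower, and 12 higher and 5 lower.

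**Figure D3:**
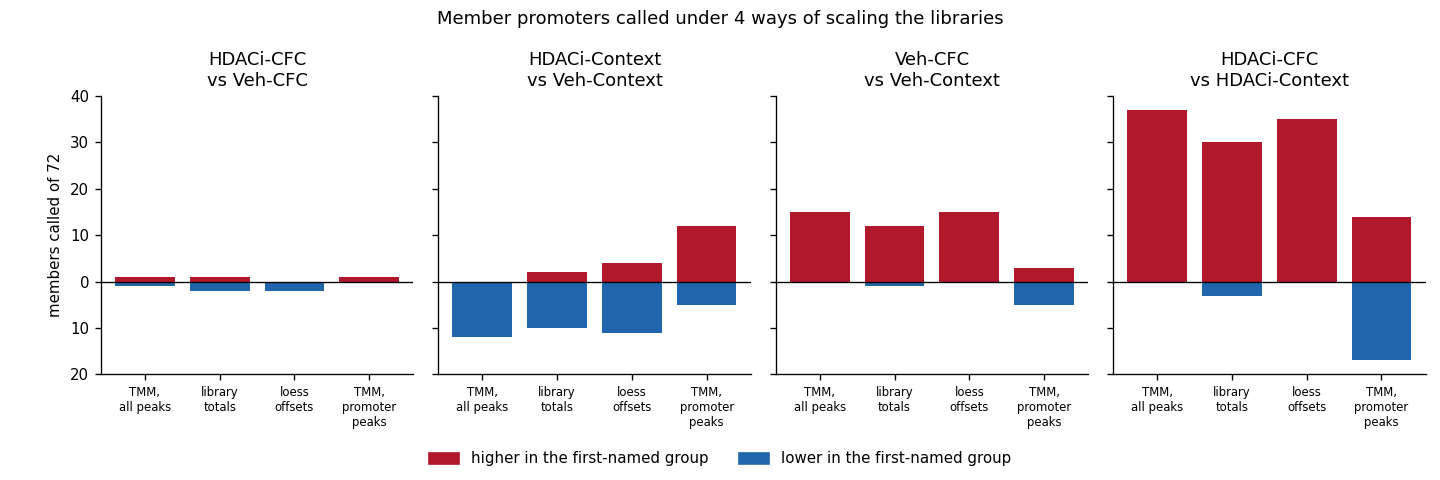
Number of the 72 member promoters called higher (red, above 0) and lower (blue, below 0) in the first-named group of each comparison, under 4 ways of scaling the libraries (x axes). The 12 lower calls of HDACi-Context against Veh-Context stand beside 10 lower and 2 higher with library totals, 11 lower and 4 higher with loess offsets, and 5 lower and 12 higher with promoter peaks only.

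Of the 72 members, 29 were called in none of the 4 comparisons, 22 in 1, 19 in 2, and 2, Arl16 and Rab4a, in 3. Of all genes 39.7% were called in none, 30.5% in 1, 23.4% in 2 and 6.07% in 3. Of the 12 members lower with the drug in Context, 8 were higher with shock under the drug, as were 70.3% of all genes lower with the drug in Context. These comparisons share the HDACi-Context libraries, so low values there enter both with opposite sign.

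Among the Rabs of regulated secretion and synaptic vesicles, 3 of 7 were lower with the drug in Context (24.2% of all genes) and 3 of 7 higher with shock under the drug (48.9%), and none was called in the other comparisons. On promoter peaks only, these became 0 higher and 0 lower (9.89% and 10.6% of all genes), and 1 higher and 1 lower (21.1% and 22.5%). Rab27b was then lower with shock without the drug, as were 5.31% of all genes. Rab3a, the main Rab of synaptic vesicles, had a promoter peak upstream of its start (chr8:70751901-70754569, mm10). It measured 18.8, 18.8 and 19.1 CPM in HDACi-CFC and 14.4, 15.3 and 13.0 CPM in Veh-CFC. It measured 14.8, 13.2 and 10.9 CPM in HDACi-Context and 16.1, 15.2 and 14.0 CPM in Veh-Context. The HDACi-CFC libraries thus lay above all 9 others. This gave log2 fold changes of 0.54 ± 0.13 for HDACi-CFC against HDACi-Context (adjusted p = 0.0012) and 0.40 ± 0.14 against Veh-CFC, which missed the threshold (adjusted p = 0.17). The Rab3a call was lost with promoter scaling. Rab27b, which shares vesicle docking with Rab27a, was lower in HDACi-Context (9.94, 8.93 and 10.1 CPM) than in Veh-Context (15.6, 14.7 and 12.9 CPM), without overlap. Its log2 fold change was -0.58 ± 0.14 (adjusted p = 0.0062), and Rab27a had -0.66 ± 0.15 (adjusted p = 0.0024). Rab26, which is linked to synaptic vesicle clusters and autophagy, had -0.50 ± 0.12 (adjusted p = 0.0072). Rab27b lost its call without HDACi-Context replicate 2 or Veh-Context replicate 1, Rab27a without Veh-Context replicate 3, and Rab26 without HDACi-Context replicate 3 or Veh-Context replicate 3 (highest adjusted p = 0.06, 0.065 and 0.12), and all 3 lost it on promoter peaks only. Rab27a also lost it at the promoter peak nearest to the start.

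At the peaks that represent the early endosome Rabs, calls fell on some and not on others, and the differences between genes were not tested. Rab5a, Rab5b and Rab5c are paralogs that drive early endosome fusion. Rab5c was higher with shock both without the drug (0.79 ± 0.17, adjusted p = 0.0043) and with it (0.99 ± 0.16, adjusted p = 5.8e-06). Its promoter peak measured 9.63, 10.9 and 11.8 CPM in HDACi-CFC, against 6.12, 5.51 and 4.56 CPM in HDACi-Context, and 13.5, 11.6 and 9.48 CPM in Veh-CFC, against 6.49, 6.77 and 6.76 CPM in Veh-Context. Every CFC library of Rab5c lay above every Context library. The call without the drug was lost without Veh-CFC replicate 1 (adjusted p = 0.055) and at the promoter peak nearest to the start, where the value was 0.04 (adjusted p = 0.95). Rab5a was called in no comparison under the common scaling and was higher with the drug in Context on promoter peaks only (0.56). Under the common scaling its log2 fold changes were 0.14 and 0.26 for the drug with and without shock and 0.24 and 0.12 for shock without and with the drug. At their upstream promoter peaks Rab5a and Rab5c were both called, at -1.01 and -1.09 with the drug in Context (adjusted p = 0.02 and 0.007) and at 0.89 and 1.23 with shock under the drug (adjusted p = 0.014 and 0.00032). Rab5b, whose peak lay upstream of the start, was lower with the drug in Context (-0.62 ± 0.20, adjusted p = 0.043), a call that held in 4 of the 12 fits that leave out 1 library (highest adjusted p = 0.25) and was lost on promoter peaks only. Rab31, which acts between the Golgi and endosomes, was higher with shock under the drug (1.10 ± 0.20, adjusted p = 2.8e-05) and, without the drug, by 0.71 ± 0.22 (adjusted p = 0.042), the second call holding in 5 of 12 such fits (highest adjusted p = 0.42) and not on promoter peaks only, and neither holding at the promoter peak nearest to the start.

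The recycling endosome Rabs held calls in both directions. Rab4a drives fast recycling to the plasma membrane, and Rab35 acts in a parallel fast route. The Rab4a promoter peak (chr8:123804179-123808281) measured 19.3, 16.3 and 16.4 CPM in HDACi-CFC and 19.1, 16.3 and 14.9 CPM in Veh-CFC. It measured 9.45, 7.65 and 6.87 CPM in HDACi-Context and 9.85, 12.5 and 13.4 CPM in Veh-Context. The CFC libraries all lay above the Context libraries, and HDACi-Context lay below Veh-Context. With shock under the drug its log2 fold change was 1.12 ± 0.15 (adjusted p = 1.1e-07) and on promoter peaks only 0.62 ± 0.15, still called. Its rise with shock without the drug (0.50 ± 0.15, adjusted p = 0.036) held in 8 of 12 fits that leave out 1 library (highest adjusted p = 0.24), and its drop with the drug in Context (-0.57 ± 0.15, adjusted p = 0.013) in 9 of 12 (highest adjusted p = 0.16), and neither held on promoter peaks only. Rab35 (chr5:115632489-115636180) measured 15.8, 11.2 and 12.2 CPM in Veh-CFC, against 6.87, 7.36 and 7.28 CPM in Veh-Context, without overlap. Its log2 fold change of 0.87 ± 0.17 (adjusted p = 0.0021) stayed called under all 20 alternatives run for it, and was 0.93 ± 0.16 with shock under the drug (adjusted p = 9.7e-06).

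Rab11a, the Rab of the slow recycling endosome that supplies glutamate receptors to spines, was lower with the drug in Context at its representative peak. Its peak (chr9:64737741-64739248), centred upstream of the start, measured 6.53, 4.87 and 7.07 CPM in HDACi-Context, against 11.9, 13.1 and 11 CPM in Veh-Context. Its value of -0.96 ± 0.16 (adjusted p = 7.2e-05) stayed called under all 21 alternatives, with -0.66 ± 0.17 on promoter peaks only. With shock it was not called under the common scaling (-0.50 ± 0.17 without the drug, adjusted p = 0.058, and -0.13 ± 0.18 with it), and on promoter peaks only it was lower in both (-0.75 and -0.63). Rab11b had the same signs with no call under the common scaling (-0.54 with the drug in Context, -0.67 and -0.53 with shock without and with the drug). With promoter scaling Rab11b was lower with shock, at -0.92 without the drug and -1.03 with it, the largest called drop of any representative member peak in that fit. At its downstream promoter peak Rab11a was higher with shock under the drug (0.52, adjusted p = 0.0092). That peak was not called with the drug in Context (-0.22, adjusted p = 0.45). Rab14, which acts between endosomes and the Golgi, was called in no comparison under the common scaling. On promoter peaks only Rab14 was higher with the drug in Context (0.49) and lower with shock under the drug (-0.70).

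Late endosome and lysosome Rabs gave no call with the drug under the common scaling. With shock 2 of the 7 were higher without the drug and 3 with it (16.4% and 48.9% of all genes). Scaled on promoter peaks only, 0 were higher in either comparison (6.95% and 21.1% of all genes), with 2 lower under the drug (22.5% of all genes). On promoter peaks only, 3 of them, Rab32, Rab9 and Rab7, were higher with the drug in Context (9.89% of all genes). Rab7, which directs late endosomes to lysosomes, measured 41.4, 42.3 and 43.7 CPM in HDACi-CFC, 37.4, 35.8 and 41.1 in Veh-CFC, 33.4, 35.2 and 37.9 in HDACi-Context and 30.6, 29.6 and 29.2 in Veh-Context. Its shock values just missed the threshold, with 0.35 ± 0.12 without the drug (adjusted p = 0.051) and 0.26 ± 0.11 with it (adjusted p = 0.057). Rab24 was higher with shock without the drug (0.81 ± 0.21, adjusted p = 0.015) in 9 of 12 fits that leave out 1 library (highest adjusted p = 0.12), and Rab12 (0.54 ± 0.17, adjusted p = 0.046) in 2 of 12 (highest adjusted p = 0.17), and both lost the call on promoter peaks only, Rab12 also at the promoter peak nearest to the start. Rab38, the lowest promoter peak per kb, was higher with shock under the drug (1.26 ± 0.48, adjusted p = 0.036), a call that DESeq2 and 3 of the scalings did not make.

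Among the Rabs of the endoplasmic reticulum and Golgi, paralogs are given side by side, with no test of the difference between them. Rab6a and Rab6b both act in traffic at the Golgi, Rab6b mainly in neurons. Among the representative promoter peaks, the rise of Rab6b with shock under the drug came next in size after those of Arl16 and Arl5c. Its intronic peak (chr9:103112688-103122805), in the active enhancer state, measured 53.1, 53.8 and 52.6 CPM in HDACi-CFC and 51.8, 42.7 and 30.0 CPM in Veh-CFC. It measured 27.3, 19.2 and 16.0 CPM in HDACi-Context and 21.3, 22.2 and 26.8 CPM in Veh-Context. All CFC libraries lay above all Context libraries, and the HDACi-CFC libraries lay closest together. It changed by 1.35 ± 0.17 with shock under the drug (adjusted p = 5.4e-06; 0.86 ± 0.14 on promoter peaks only, still called) and 0.82 ± 0.18 without it (adjusted p = 0.011). Without the drug the call was lost without Veh-CFC replicate 1 or Veh-Context replicate 1 (highest adjusted p = 0.07) and with loess offsets. Rab6a (chr7:100606431-100607382), upstream of its start, was lower with the drug in Context, at 4.59, 5.74 and 3.74 CPM in HDACi-Context against 8.51, 8.24 and 9.11 CPM in Veh-Context. Its log2 fold change of -0.88 ± 0.18 (adjusted p = 0.001) stayed called under all 20 alternatives. The upstream promoter peak of Rab6b was lower as well (-0.64, adjusted p = 0.00064). Of Rab1a and Rab1b, both of transport from the endoplasmic reticulum to the Golgi, Rab1b was higher with shock under the drug (1.00 ± 0.17, adjusted p = 1.2e-05). Rab1a had -0.05 ± 0.12 at its representative peak and was called higher at its upstream promoter peak (0.84, adjusted p = 0.025).

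Rab33a, a Golgi Rab on the X chromosome, was higher with shock without the drug by 0.62 ± 0.15 (adjusted p = 0.0097), in 10 of 12 fits that leave out 1 library (highest adjusted p = 0.089), and not on promoter peaks only. Rab33b, a Golgi Rab that binds the autophagy protein Atg16l1, was lower in HDACi-CFC (6.30, 5.51 and 4.70 CPM) than in Veh-CFC (8.99, 9.01 and 8.35 CPM). Its log2 fold change of -0.67 ± 0.18 (adjusted p = 0.048) held in 3 of 12 such fits (highest adjusted p = 0.26) and not on promoter peaks only. Rab2a, Rab18 and Rab39b, the last of which is mutated in an X-linked intellectual disability, were called in no comparison under the common scaling. Scaling on promoter peaks made Rab2a higher with the drug in Context (0.67) and lower with shock under the drug (-0.66). Rab18 was then also lower with shock under the drug (-0.84).

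Among the 6 Rabs of exocytosis and the cilium, 1 was lower with the drug in Context, 1 higher with shock without the drug and 2 with shock under it (24.2%, 16.4% and 48.9% of all genes). On promoter peaks only, 1 was higher and 1 lower with the drug in Context (9.89% and 10.6% of all genes). With shock 1 was then lower without the drug and 1 with it (5.31% and 22.5%). The gene lower with the drug in Context was Rab28. Its peak (chr5:41708197-41708998) covered most of the promoter window printed above and measured 2.92, 2.14 and 2.65 CPM in HDACi-Context, against 5.45, 7.65 and 6.47 CPM in Veh-Context. The HDACi-CFC libraries were at 4.64, 4.37 and 3.53 CPM and the Veh-CFC libraries at 5.91, 7.21 and 5.38 CPM. In both pairs the drug groups lay below vehicle without overlap. In Context the log2 fold change was -1.32 ± 0.21 (adjusted p = 2.1e-05), called under all 20 alternatives, and with shock -0.57 ± 0.21 (adjusted p = 0.20). Rab10 was higher with shock without the drug, at 17.3, 19.6 and 21.9 CPM in Veh-CFC against 14.6, 13.2 and 12.6 CPM in Veh-Context (0.54 ± 0.14, adjusted p = 0.013), a call kept in all 12 fits that leave out 1 library but neither on promoter peaks only nor at the promoter peak nearest to the start (0.24, adjusted p = 0.50). Rab8a, which moves cargo to the cilium and the cell surface, was higher with shock under the drug by 0.58 ± 0.22 (adjusted p = 0.031), in 9 of 12 such fits (highest adjusted p = 0.16) and not on promoter peaks only. Outside these roles, Rab40c, a substrate adaptor of ubiquitin ligases, was lower with the drug in Context by -0.36 ± 0.12 (adjusted p = 0.048), in 4 of 12 such fits (highest adjusted p = 0.33) and not on promoter peaks only.

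**Figure D4:**
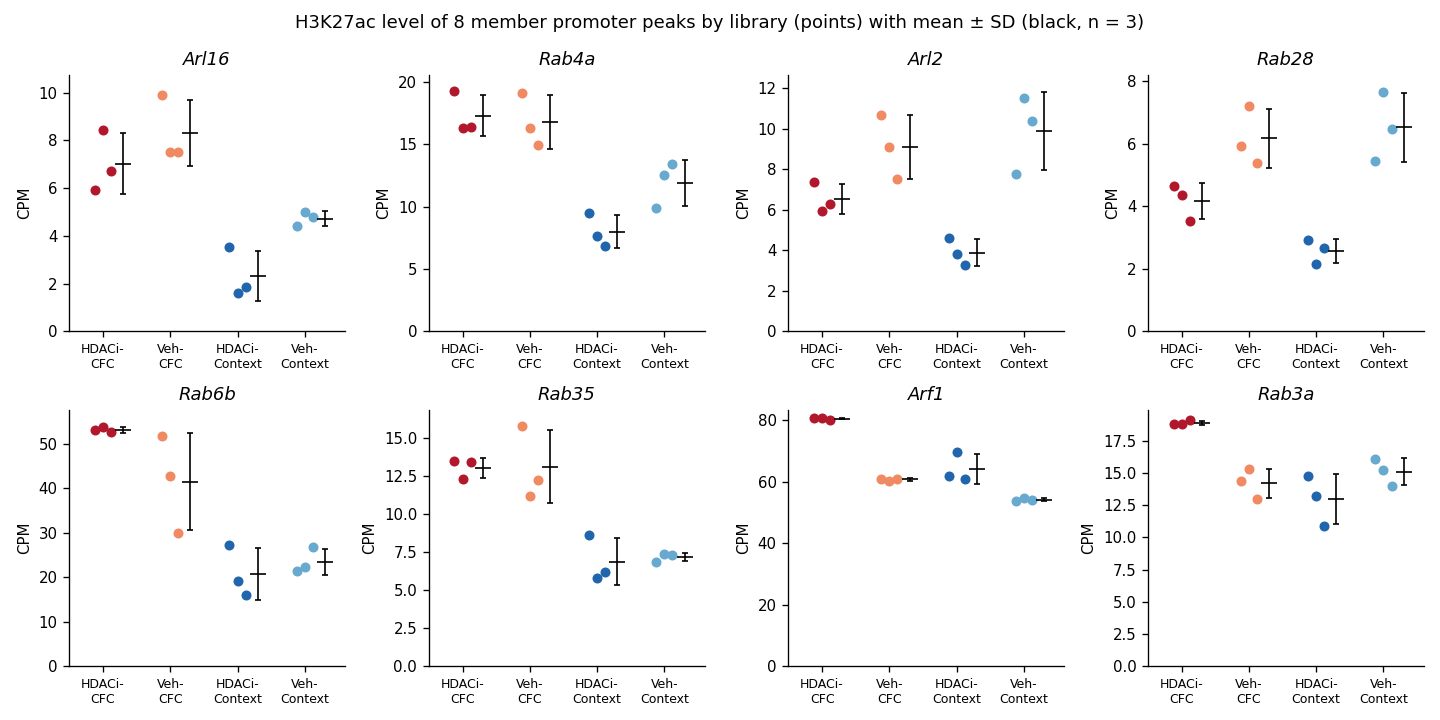
H3K27ac level in CPM (y axes from 0) at the promoter peak of 8 member genes in each of the 12 libraries (coloured points) with the mean ± SD of the 3 libraries of a group (black). Arl16, Rab4a, Rab6b and Rab35 are higher in both CFC groups than in the Context groups with no overlap, and Arl2 and Rab28 are lowest in HDACi-Context, at 3.26 to 4.59 and 2.14 to 2.92 CPM; on promoter peaks only, the Arl2 and Rab28 drops and the 4 rises under the drug stay called.

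Arf proteins recruit coats and lipid-modifying enzymes to membranes. Arf1 recruits the COPI coat at the Golgi, Arf3, Arf4 and Arf5 act with it there, and Arf6 works at the plasma membrane and recycling endosomes. With shock under the drug 5 of the 6 were higher, all but Arf2 (48.9% of all genes), and on promoter peaks only 2 were higher and 1, Arf2, lower (21.1% and 22.5%). With shock without the drug Arf5 (0.71 ± 0.21, adjusted p = 0.028) and Arf6 (0.82 ± 0.23, adjusted p = 0.024) were called, in 8 and 9 of 12 fits that leave out 1 library (highest adjusted p = 0.13 and 0.20), and neither on promoter peaks only. Arf6 was called in neither shock comparison at the promoter peak nearest to the start. Its representative peak measured 7.32, 6.76 and 7.06 CPM in HDACi-CFC, 6.94, 5.94 and 3.82 in Veh-CFC, 3.89, 2.43 and 3.94 in HDACi-Context and 2.99, 3.24 and 3.31 in Veh-Context. The Veh-CFC libraries of Arf6 were the most spread, and the lowest of them lay within the HDACi-Context range.

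Arf1 had the widest promoter peak of the family (chr11:59212612-59227780). It measured 80.7, 80.7 and 80.3 CPM in HDACi-CFC, 61.1, 60.4 and 60.9 in Veh-CFC, 61.8, 69.8 and 61.1 in HDACi-Context and 53.7, 54.7 and 54.2 in Veh-Context. HDACi-CFC lay above every other library, and no drug group overlapped its vehicle group. With the drug the log2 fold change was 0.41 ± 0.10 with shock (adjusted p = 0.041) and 0.25 ± 0.10 in Context (adjusted p = 0.13). The first call held in 5 of 12 fits that leave out 1 library (highest adjusted p = 0.18) and on promoter peaks only (0.46), but not with loess offsets or at the promoter peak nearest to the start. Arf1 was then also higher with the drug in Context (0.55), together with Arf2 and Arf3. Its rise with shock under the drug (0.33 ± 0.10, adjusted p = 0.01) was lost with library totals, with loess offsets (-0.01) and on promoter peaks only (-0.17).

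Among the 16 Arl genes, 12 were higher with shock under the drug, 4 with shock without it, and 3 were lower with the drug in Context (48.9%, 16.4% and 24.2% of all genes). On promoter peaks only, these became 5 higher and 3 lower (21.1% and 22.5% of all genes), 0 and 0 (6.95% and 5.31%), and 1 higher and 2 lower (9.89% and 10.6%). Arl16 (chr11:120465415-120467201) had the largest rise of any representative promoter peak of the members. It measured 5.94, 8.42 and 6.72 CPM in HDACi-CFC and 9.89, 7.53 and 7.50 CPM in Veh-CFC. It measured 3.55, 1.62 and 1.84 CPM in HDACi-Context and 4.40, 5.00 and 4.78 CPM in Veh-Context. Every CFC library lay above every Context library, and HDACi-Context lay below Veh-Context. The log2 fold change was 1.59 ± 0.22 with shock under the drug (adjusted p = 2.9e-07; 1.09 on promoter peaks only, still called). It was 0.82 ± 0.21 with shock without the drug (adjusted p = 0.015), lost without Veh-CFC replicate 1 or Veh-Context replicate 1 (highest adjusted p = 0.13) and on promoter peaks only. With the drug in Context it was -1.02 ± 0.23 (adjusted p = 0.0031; -0.72 on promoter peaks only, still called), lost without HDACi-Context replicate 2 (adjusted p = 0.061). Arl5c, next in size, had 1.42 ± 0.22 with shock under the drug (adjusted p = 2e-06), and Arl1, which recruits golgins, had 1.03 ± 0.24 (adjusted p = 0.00078). On promoter peaks only Arl5c stayed called (0.92) and Arl1 lost its call.

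Arl2, which regulates tubulin folding and the release of lipid-modified cargo, had the largest drop with the drug in Context among the representative promoter peaks. Its peak (chr19:6141008-6142273) measured 4.59, 3.83 and 3.26 CPM in HDACi-Context, against 7.76, 11.5 and 10.4 CPM in Veh-Context. It measured 7.39, 5.93 and 6.30 CPM in HDACi-CFC, against 10.7, 9.12 and 7.50 CPM in Veh-CFC. The drug group lay below vehicle in both pairs, without overlap. The log2 fold change in Context was -1.32 ± 0.18 (adjusted p = 3.3e-06), called under all 21 alternatives, and with shock -0.47 ± 0.18 (adjusted p = 0.25).

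Arl8a and Arl8b, which link lysosomes and synaptic vesicle precursors to kinesin, were both higher with shock. Arl8a, with a peak in its first introns (chr1:135147562-135160770), measured 85.5, 80.9 and 86.4 CPM in HDACi-CFC, 73.1, 62.9 and 67.4 in Veh-CFC, 48.8, 46.3 and 40.3 in HDACi-Context and 51.1, 45.3 and 61.4 in Veh-Context. All CFC libraries lay above all Context libraries. The log2 fold change was 0.90 ± 0.11 under the drug (adjusted p = 3.3e-08), called under all 20 alternatives, and 0.36 ± 0.12 without it (adjusted p = 0.046), in 3 of 12 fits that leave out 1 library (highest adjusted p = 0.20) and neither on promoter peaks only nor at the promoter peak nearest to the start. Arl8b had 0.65 ± 0.18 under the drug (adjusted p = 0.0053) and 0.71 ± 0.20 without it (adjusted p = 0.028), and both were lost on promoter peaks only. The call without the drug held in 8 of 12 fits that leave out 1 library (highest adjusted p = 0.21).

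The ciliary Arls were mixed. Arl3, which unloads lipid-modified cargo in the cilium, was higher with shock by 0.58 ± 0.17 without the drug (adjusted p = 0.034) and 0.46 ± 0.16 with it (adjusted p = 0.023), in 8 and 9 of 12 fits that leave out 1 library (highest adjusted p = 0.19 and 0.15) and in neither on promoter peaks only. Arl6, part of the machinery that recruits the BBSome, was lower with the drug in Context, at 8.20, 7.77 and 7.82 CPM in HDACi-Context against 13.0, 9.56 and 11.6 CPM in Veh-Context. Its log2 fold change of -0.55 ± 0.15 (adjusted p = 0.013) held in 9 of 12 such fits (highest adjusted p = 0.10) and not on promoter peaks only. With shock the drug gave Arl6 nearly the same value, -0.54 ± 0.15, which missed the threshold (adjusted p = 0.059). Arl13b, the exchange factor of Arl3, and Arl4c were called in no comparison under the common scaling, and their peaks averaged only 0.788 to 2.37 CPM in the 4 groups. On promoter peaks only Arl13b was lower with shock under the drug (-0.95).

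Whether the effect of shock differed with the drug was tested as an interaction. edgeR called 0 of 72 member promoters, where 0.17% of all genes were called higher and 0.0% lower. Before adjustment 15 members were positive and 2 negative at 0.05 (18.6% and 0.728% of all genes), and the median was 0.15 over the members and 0.21 over all genes. DESeq2 called 3, all positive: Rab3a (0.64, adjusted p = 0.049), Arl8a (0.56, adjusted p = 0.027) and Rab26 (0.59, adjusted p = 0.047). Over all 14154 genes it called 421 positive and 1 negative. Without HDACi-Context replicate 1, edgeR called 8 members, all positive (Arl2, Arl5c, Arl8a, Arl16, Rab3a, Rab4a, Rab6b and Rab26), where 7.5% of all genes were. Without Veh-CFC replicate 1 it called Arl2 and Arl8a, and 767 positive and 1 negative over all 14158 genes. With all 12 libraries edgeR gave 0.85 ± 0.26 at Arl2 (adjusted p = 0.16), 0.62 ± 0.19 at Rab3a (adjusted p = 0.17) and 0.55 ± 0.16 at Arl8a (adjusted p = 0.14). The larger number of calls with shock under the drug than without it was therefore not accompanied by a called difference between the 2 shock effects in the fit of all 12 libraries.

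Peaks on the 2 flanks of a start were set side by side, a comparison chosen after the values were seen and given without a test. For 39 members a promoter peak was centred upstream of the start and another downstream. With the drug in Context the median log2 fold change was -0.38 upstream and -0.17 downstream, and the upstream value was the lower in 28 of 39 genes (71.8%, against 54.7% of 6042 genes with both peaks). Upstream, 12 members were lower (22.4% of the 6042 genes), and downstream 4 (15.0%), with 0 higher on either side. For the drug with shock the medians were -0.21 upstream and 0.08 downstream, and the upstream value was the lower in 31 of 39 (79.5%, against 56.6% of all). With shock the members' shares, 71.8% without the drug and 64.1% with it, were close to those of all genes, 71.5% and 66.4%. A scaling that shifts all peaks of a library alike leaves the difference between the flanks of a gene as it is.

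Several members had a called drop upstream beside a downstream peak with no call. Rab5a had -1.01 upstream (adjusted p = 0.02) and 0.26 downstream with the drug in Context, Rab1a had -0.98 (adjusted p = 0.029) and 0.29, and Arf3 had -0.55 (adjusted p = 0.014) and 0.18. Rab28 had -1.32 upstream and 0.10 downstream, Arl15 -1.49 (adjusted p = 0.0035) and -0.20, Rab5c -1.09 (adjusted p = 0.007) and -0.30, and Arf4 -0.88 (adjusted p = 0.00022) and -0.26. The reverse occurred as well: Rab3d had -0.29 upstream and -0.72 downstream (adjusted p = 0.0006). Which peak stands for a gene therefore decided the call of several members, and a value at 1 peak does not describe the whole promoter region.

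**Figure D5:**
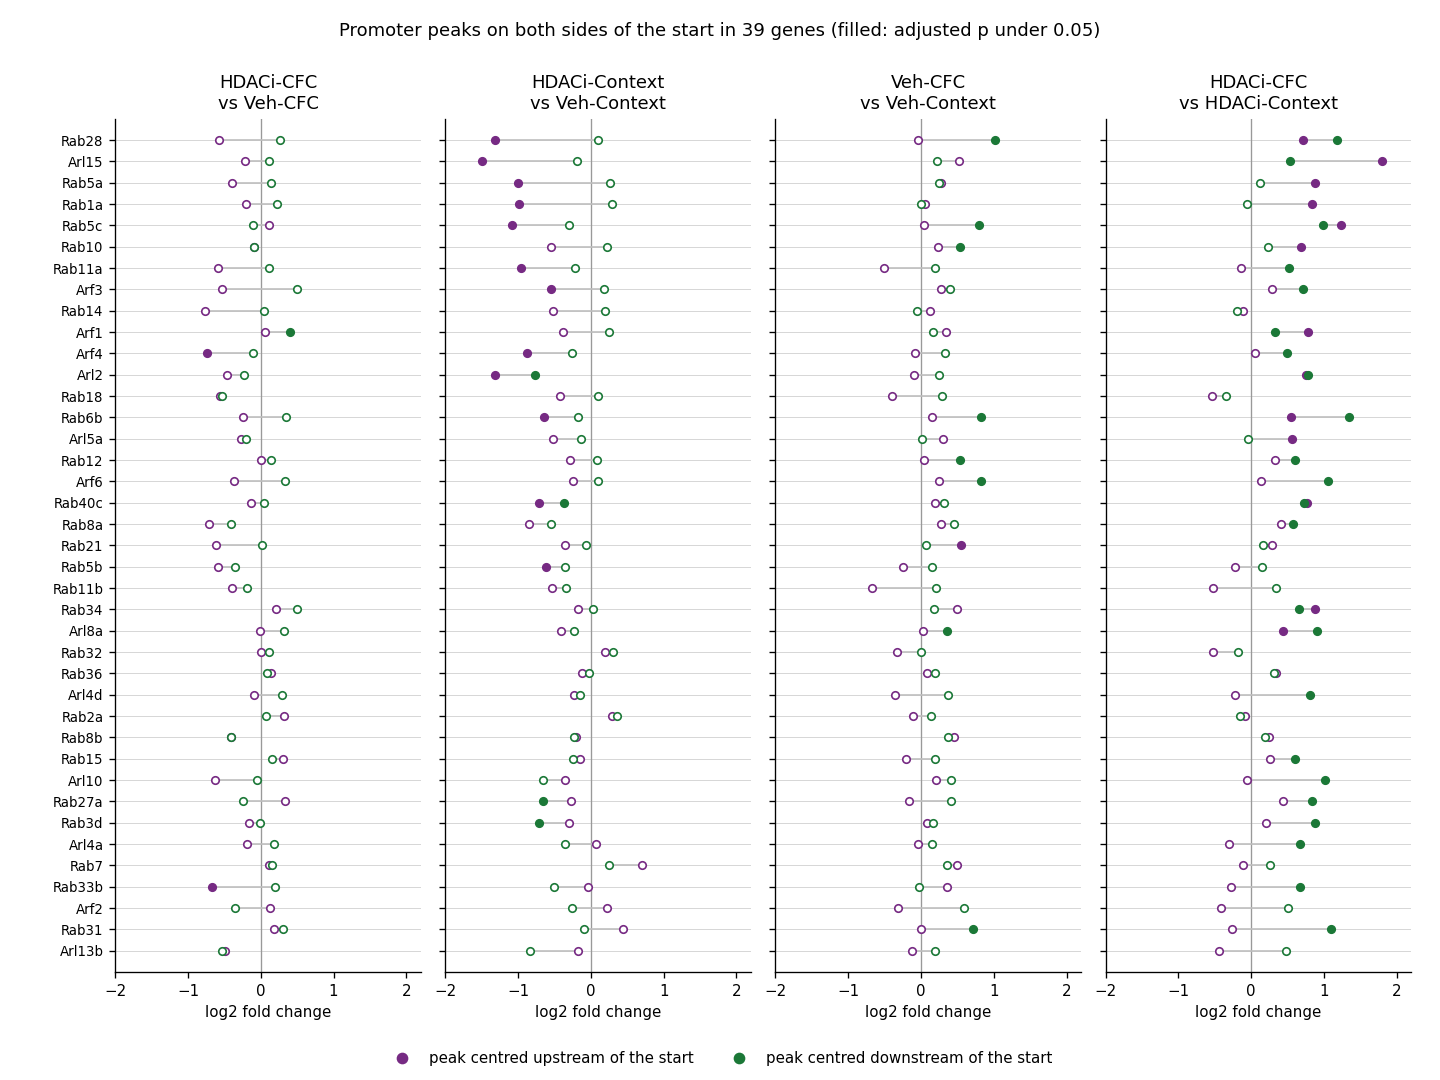
Log2 fold change (x axes) of the promoter peak centred upstream (purple) and downstream (green) of the start in the 39 member genes with both (rows, sorted by the difference in HDACi-Context against Veh-Context), joined by a line; filled points have an adjusted p under 0.05. The upstream point lies to the left in 31, 28, 28 and 25 of 39 genes in the panels from left to right.

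Outside promoters 415 member peaks were tested. Calls were 2 higher and 1 lower for HDACi-CFC against Veh-CFC (0.452% and 0.137% of all such peaks), 11 higher and 14 lower for HDACi-Context against Veh-Context (3.05% and 3.14%), 12 higher and 13 lower for Veh-CFC against Veh-Context (2.71% and 3.13%), and 65 higher and 75 lower for HDACi-CFC against HDACi-Context (15.8% and 20.5%). These numbers lay near the background. Unlike the promoters they went in both directions, and on promoter peaks only the splits were 2 and 0, 81 and 7, 6 and 67, and 28 and 216. Of all such peaks 0.648% and 0.0571%, 22.4% and 0.849%, 1.34% and 18.1%, and 6.47% and 56.8% were called under that scaling. The interaction called 0 (0.0155% and 0.000816% of all), while 22 were positive and 17 negative with an unadjusted p below 0.05, and DESeq2 called 1. Of all such peaks DESeq2 called 521 higher and 2 lower.

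Among member peaks the drug with shock gave its lowest adjusted p at an intronic peak of Arf3. The peak (chr15:98751584-98756080, 9160 bp downstream of the start, primed enhancer state) averaged 22.5 ± 0.577 CPM in HDACi-CFC and 13.0 ± 2.03 CPM in Veh-CFC. Its log2 fold change of 0.80 ± 0.14 (adjusted p = 0.0019) was kept in all 12 fits that leave out 1 library (highest adjusted p = 0.047) and under all 19 alternatives. At the promoter peak of Arf3 next to it, 25.3, 28.3 and 24.4 CPM in HDACi-CFC stood against 20.9, 16.4 and 18 CPM in Veh-CFC without overlap, at 0.49 ± 0.15 and an adjusted p of 0.087. The other 2 calls, higher at an intergenic peak of Arl4d (0.43 ± 0.11, adjusted p = 0.045) and lower at one of Rab2a (-0.54 ± 0.13, adjusted p = 0.025), held in 3 and 7 of those 12 fits (highest adjusted p = 0.20 each).

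Several peaks upstream of Rab4a were called in 1 or the other comparison. Peaks 24666, 26457 and 32642 bp upstream were higher with shock under the drug, by 2.59 ± 0.49, 2.42 ± 0.53 and 2.14 ± 0.59 (adjusted p = 7.6e-05, 0.00042 and 0.0058), against low levels of 0.265 to 0.408 CPM in HDACi-Context, so these fitted values rest on few counts. Between them, a peak 28161 bp upstream was lower with the drug in Context, at 2.15 ± 0.155 CPM in HDACi-Context and 4.49 ± 1.34 CPM in Veh-Context (-1.12 ± 0.23, adjusted p = 0.0012). All 4 calls were kept in the 12 fits that leave out 1 library. The largest fitted value of the family was at a peak 10443 bp upstream of Rab3a, inside an intron of Pde4c. Its raw counts were 89, 32 and 53 in HDACi-CFC, 31, 22 and 9 in Veh-CFC, 8, 1 and 2 in HDACi-Context and 1, 5 and 23 in Veh-Context. HDACi-CFC lay above HDACi-Context without overlap (adjusted p = 0.0008), but the file's smallest count is 1, so no fold is given at these counts. An intronic peak of Rab31 (28064 bp downstream of the start) was lower with the drug in Context, at 5.28 ± 0.238 CPM in HDACi-Context and 10.2 ± 0.468 CPM in Veh-Context (-0.94 ± 0.16, adjusted p = 8.9e-05), while the Rab31 promoter peak had -0.09 ± 0.22.

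The regulators and partners of these GTPases were looked at as 7 lists with 159 genes, 148 of them with a promoter peak. With shock under the drug, 13 of 31 Rab exchange factors, 19 of 32 Rab GTPase-activating proteins, 16 of 27 Rab effectors, 9 of 14 Arf exchange factors, 14 of 19 Arf GTPase-activating proteins, 11 of 20 Arf and Arl partners and 1 of 5 genes of the Rab membrane cycle were higher, where the background was 48.9%. Of the lower genes there was 1 each among the Rab effectors, the Arf exchange factors and the Arf and Arl partners, against 2.07%. With promoter scaling those lists had 5, 7, 6, 3, 6, 4 and 1 higher and 5, 7, 7, 4, 2, 4 and 1 lower, against 21.1% and 22.5% of all genes. The median of the Arf GTPase-activating proteins was 0.58, with a positive value at all 19, where all genes had a median of 0.44 and 83.2% were positive; on promoter peaks only it was 0.08. Among them Git1, a synaptic scaffold, averaged 59.1 ± 5.54 CPM in HDACi-CFC and 20.4 ± 6.45 CPM in HDACi-Context (1.54 ± 0.23, adjusted p = 0.0003). Rin1, an exchange factor of Rab5 in neurons, averaged 134.2 ± 5.46 and 36.7 ± 16.0 CPM in those groups (1.87 ± 0.34, adjusted p = 0.0029). Psd, an exchange factor of Arf6, averaged 72.5 ± 5.24 and 24.6 ± 6.73 CPM (1.56 ± 0.14, adjusted p = 2.1e-10). Plekhm2, which joins Arl8 to kinesin, averaged 5.91 ± 0.422 and 1.13 ± 0.666 CPM (2.39 ± 0.42, adjusted p = 0.00049), a low level in HDACi-Context. Values of single genes of these lists, here and below, are under the common scaling. Whether their calls hold when 1 library is left out was not tested.

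With the drug in Context the same lists had 9, 6, 5, 4, 4, 6 and 1 lower in that order, against a background of 24.2%, and 2 genes higher, the Arf effectors Arfip1 (0.69) and Pld1 (0.62). With promoter scaling they had 4, 2, 1, 2, 1, 2 and 1 lower and 2, 3, 3, 3, 3, 3 and 1 higher, against 10.6% and 9.89% of all genes. Psd averaged 24.6 ± 6.73 CPM in HDACi-Context and 48.6 ± 4.83 CPM in Veh-Context (-0.98 ± 0.14, adjusted p = 1.1e-05), and Git2, a relative of Git1, 4.65 ± 0.579 and 10.5 ± 2.47 CPM (-1.21 ± 0.17, adjusted p = 3.6e-06). For the drug with shock 2 genes were called, Acap2 higher (0.55 ± 0.12, adjusted p = 0.012) and Git2 lower (-0.79 ± 0.16, adjusted p = 0.0079), both GTPase-activating proteins of Arf6. With shock without the drug 3, 6, 6, 6, 5, 5 and 1 were higher and 0 lower, against 16.4% of all genes, and on promoter peaks only 2, 3, 1, 2, 4, 3 and 0 were higher and 3, 0, 2, 0, 0, 1 and 1 lower (6.95% and 5.31% of all genes).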

How the data were processed

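H3K27ac was read as counts per peak in 12 libraries. The authors deposited 1 table of whole-number read counts over 144154 peaks with peak width, distance to the nearest transcription start, annotation, chromatin state and the percent of the peak in that state, a deposited percent not used here. Per the submitters' processing notes, the tools used on mm10 included MACS2 and HOMER 4.11, DiffBind 2.16.2 with DESeq2 1.28.1, and for the reads Bowtie2 2.3.5, Trimmomatic 0.38 and SAMtools 1.9; their settings are not given in the sources used here. The 12 input samples were not analysed here.

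From the counts, edgeR 4.0.16 (R 4.3.3) fitted 1 quasi-likelihood model to all 12 libraries with 1 coefficient per group, TMM factors from all peaks, filterByExpr at a minimum count of 10 (140 peaks removed, 144014 tested) and Benjamini-Hochberg adjustment over all peaks tested. A peak was called at an adjusted p under 0.05. CPM used the TMM-adjusted library sizes. The model was also run on simulated counts with the same spread at every peak and no library-wide shift of the promoter share. That run therefore cannot speak to the choice of scaling. Sequencing depth was 6639158 to 16734757 counts per library, the median biological coefficient of variation was 0.131, and representative member peaks averaged 9.67 to 761.9 counts. Reads without molecular identifiers are not independent molecules.

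Members and gene lists were chosen with earlier results of these data known. Genes named in a comparison were all called members where these were 24 or fewer, otherwise the 12 largest, plus a fixed set of trafficking genes. The comparison of the flanks of the start, and other members given with values, were chosen after values were seen. Replicate numbers were not used to pair the libraries in the main fit. Deviations of same-numbered libraries correlated between -0.28 and 0.355, those of other pairs between -0.296 and 0.234. The highest value came from a same-numbered pair, so a pairing by number was neither shown nor excluded. No library repeated another (chi-square per degree of freedom 1.35 to 3.18). Alternatives were library totals, TMM from promoter peaks only, loess offsets, no filter, a replicate block, only the groups compared, DESeq2 1.42.0, leaving out each library, only promoter peaks that span the start, and the promoter peak nearest to it.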

Additional observations from a re-analysis of the deposited data

How the results depend on the processing

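Scaling on promoter peaks only moved the number of member promoters called to 1 for HDACi-CFC against Veh-CFC and 8 for Veh-CFC against Veh-Context, and that of other member peaks to 88 for HDACi-Context against Veh-Context, 73 for Veh-CFC against Veh-Context and 244 for HDACi-CFC against HDACi-Context. Restricting promoter peaks to those that span the start left 0, 6, 2 and 10 promoter calls in the 4 comparisons (drug with shock, drug in Context, shock without and with the drug). It gave 6, 41 and 41 calls among other peaks in the first 3 of these. Fewer peaks then count as promoters, and no share of all genes is given for this restriction. A change in the rate of calls can therefore not be read from these counts. Fitting only the groups compared gave 1 promoter call for HDACi-CFC against Veh-CFC. DESeq2 gave 10 calls of other peaks for Veh-CFC against Veh-Context, and 3 promoters and 1 other peak for the interaction. Unless given otherwise, the cause was not tested.

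Leaving out 1 library gave 0 to 3, 6 to 15, 3 to 19 and 30 to 39 promoter calls in the 4 comparisons and 0 to 8 for the interaction, and 1 to 5, 11 to 39, 0 to 32, 92 to 149 and 0 to 9 calls of other peaks. Calls of other peaks for Veh-CFC against Veh-Context were 0 without Veh-CFC replicate 1 and 3 without Veh-Context replicate 1. Those for HDACi-Context against Veh-Context were 39 without HDACi-Context replicate 1 and 11 without HDACi-Context replicate 3. Over all peaks outside promoters, Veh-CFC against Veh-Context had 3315 higher and 3840 lower with all 12 libraries. The same fits gave 346 and 338, then 453 and 625. For HDACi-Context against Veh-Context these were 3735 and 3848, then 5468 and 6577, then 1619 and 1992.

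With the replicate block, promoter calls were 2, 12, 16 and 37 and 0 for the interaction, and calls of other peaks were 3, 25, 25, 138 and 0. A pairing of the libraries by replicate number was not shown.

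At the promoter peak nearest to the start the sign turned for HDACi-CFC against Veh-CFC at Rab5a (-0.40), Rab7 (-0.85), Rab14 (-0.76), Rab1a (-0.20), Arf3 (-0.54), Arf6 (-0.37) and Arl8a (-0.013). It turned for HDACi-Context against Veh-Context at Rab5a (-1.01), Rab7 (-0.52), Rab10 (-0.54), Rab14 (-0.52), Rab1a (-0.98), Rab18 (-0.42), Arf1 (-0.38), Arf3 (-0.55) and Arf6 (-0.25). It turned for Veh-CFC against Veh-Context at Rab31 (-0.000), Rab7 (-0.24), Rab14 (0.13), Rab2a (-0.10), Rab18 (-0.40) and Arf4 (-0.084). It turned for HDACi-CFC against HDACi-Context at Arl10 (-0.059), Rab31 (-0.26), Rab7 (-0.57) and Rab1a (0.84). On promoter peaks only the sign turned for HDACi-CFC against Veh-CFC at Arl8b (0.049). It turned for HDACi-Context against Veh-Context at Rab3a (0.079), Rab39b (0.043), Arf4 (0.049), Arf5 (0.060), Arl3 (0.12), Arl4c (0.20), Arl8a (0.073) and Arl13b (0.13). It turned for Veh-CFC against Veh-Context at Rab5a (-0.007), Rab1a (-0.25), Rab2a (-0.11) and Arf1 (-0.088). It turned for HDACi-CFC against HDACi-Context at Rab27b (-0.40), Rab5a (-0.38), Rab7 (-0.24), Rab10 (-0.27), Rab6a (-0.21), Rab39b (-0.40), Arf1 (-0.17), Arf4 (-0.015) and Arl3 (-0.038). With library totals it turned for Veh-CFC against Veh-Context at Rab1a (-0.036) and for HDACi-CFC against HDACi-Context at Rab27b (-0.027), Rab5a (-0.006) and Rab39b (-0.023). With loess offsets it turned for HDACi-Context against Veh-Context at Arl4c (0.075) and for HDACi-CFC against HDACi-Context at Arf1 (-0.009). With DESeq2 it turned for HDACi-CFC against Veh-CFC at Arl8b (0.002).

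Leaving out 1 library turned the sign for HDACi-CFC against Veh-CFC at Rab27b (-0.206 to 0.006), Rab4a (-0.038 to 0.152), Rab2a (-0.067 to 0.200), Arf4 (-0.167 to 0.001), Arf5 (-0.042 to 0.140) and Arl8b (-0.170 to 0.120), none of them called with all libraries. It did so for HDACi-Context against Veh-Context at Rab18 (-0.012 to 0.244), Rab39b (-0.509 to 0.187), Arf6 (-0.020 to 0.306), Arl4c (-0.314 to 0.152), Arl8b (-0.134 to 0.251) and Arl13b (-0.537 to 0.021). It did so for Veh-CFC against Veh-Context at Rab14 (-0.141 to 0.043), Rab1a (-0.088 to 0.067), Rab2a (-0.001 to 0.265), Arl4c (-1.336 to 0.323) and Arl13b (-0.406 to 0.292). It did so for HDACi-CFC against HDACi-Context at Rab39b (-0.002 to 0.232).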
